A study of Oryctolagus cuniculus with 134 samples.

Results

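TBX20, GATA4 and HAND2 are 3 of the 4 transcription factors of heart valve development looked for here, in RNA sequencing counts from the proximal aorta (Ao) and the aortic (AoV), mitral (MV), pulmonary (PV) and tricuspid (TV) valves of 27 rabbits. The members were taken by gene symbol from 29587 genes, of which 14716 carried a symbol, and they were selected with earlier results on these same counts known. Their identifiers were ENSOCUG00000007422 for TBX20, ENSOCUG00000002199 for GATA4 and ENSOCUG00000016256 for HAND2. The fourth gene, NFATC1, had no row under that symbol and was not analysed here. Because the choice rested on measured levels, the values of the 3 genes are given as descriptions, with fold changes and standard errors (SE) but without p-values.

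The rabbits were male New Zealand White animals, 12 weeks old at the start of a 16-week protocol. The control group (Ctrl, 7 rabbits) ate standard chow, the cholesterol group (CHT, 6 rabbits) ate a diet with 0.3% cholesterol, and the lard group (Lard, 7 rabbits) ate a diet with 5% lard. The fourth group (IR/CHT, 7 rabbits) ate the cholesterol diet and, after 8 weeks of it, received X-rays focused on the aortic valve and thoracic aorta, 24 Gy in 3 fractions of 8 Gy given 48 h apart. CHT, Lard and IR/CHT rabbits also drank vitamin D2 for 15 days at 25000 U per day, scaled to body weight, and Ctrl rabbits did not, so diet and vitamin cannot be told apart in comparisons with Ctrl. The study's groups given vitamin D2 alone or irradiation alone were not analysed here, so IR/CHT was set against CHT to show what differed with irradiation on the same diet. Rabbit numbers also fell into separate series for Ctrl, for CHT with Lard, and for IR/CHT. What the series stand for is not stated, and they cannot be told apart from treatment in these comparisons. Each tissue had 6 or 7 libraries per group and 26 or 27 in all, with 13564979 to 50577676 counts per library and a median of 18235577. No pair of libraries in a group was identical, and the closest of 384 pairs differed by 13.8 times the variance that counting alone gives. The counts came as 2 plates. Plate 2 held every Ao library and plate 1 every AoV and MV library of CHT, and the other groups were split over both.

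TBX20 is a T-box factor needed for the growth and patterning of the endocardial cushions, the swellings of the embryonic heart from which the valve leaflets form. GATA4 is a zinc finger factor that acts with T-box and NKX2 factors at cardiac genes, and HAND2 is a basic helix-loop-helix factor of the cushions, the ventricles and the neural crest cells that reach the outflow tract. In adult valves such factors are known from the interstitial cells, the fibroblast-like cells of the leaflet, and from the endocardium that covers it.

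Levels are given as scaled counts (CPM, a gene's share of its library's counts after scaling) on a single trimmed-mean scaling of all libraries, and they are compared between tissues or groups for 1 gene at a time, since the counts are not corrected for gene length. A gene was called when its adjusted p in edgeR's quasi-likelihood test over all genes was under 0.05 and its fold change was over 1.5. Beside each count of called members stands the share of all tested genes called in that comparison. Overlap of libraries between groups is described for the members only. The share of all genes without overlap was not counted, so non-overlap does not set the members apart from other genes.

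On chow, TBX20 was far higher in the valves than in the aorta. Its lowest, median and highest levels were 6.43, 9.16 and 14.3 CPM in Ao, against 342, 394 and 522 CPM in AoV and 392, 475 and 544.4 CPM in MV. In PV they were 275.5, 332 and 361 CPM and in TV 291, 410 and 496 CPM. Every valve library lay far above every aortic library, whereas the ranges of the 4 valves overlapped except that every PV library lay below every MV library. The log2 difference from Ao, fitted with the rabbit as a block, was 5.46 in AoV, 5.72 in MV, 5.09 in PV and 5.43 in TV. The order of the medians was MV, TV, AoV, PV and Ao, and among valve pairs the PV to MV difference was the one called, at -0.63 on the log2 scale with an SE of 0.13. No pair of valves next to each other in that order passed the threshold.

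GATA4 was also scarce in the aorta on chow, with 1.93, 2.65 and 5.71 CPM as its lowest, median and highest levels. In AoV these were 75.1, 107 and 229.3 CPM, in MV 44.5, 61.4 and 106 CPM, in PV 42.0, 43.3 and 54.3 CPM and in TV 30.1, 35.7 and 173.6 CPM. All 4 valves were therefore above the aorta without overlap, and AoV had the highest median, with every AoV library above every PV library. The log2 difference from Ao was 5.41 in AoV, 4.63 in MV, 3.93 in PV and 3.92 in TV. The differences called between valves were PV to AoV at -1.47, TV to AoV at -1.49 and PV to MV at -0.69, with SEs of 0.27 to 0.28. These differences depended on the libraries and the fit. With the score of a common axis of the libraries (a principal component, described after the treatments) as a covariate they were 0.03, -0.30 and 0.22, and PV to MV was -0.61 and not called without the rabbit as a block. Summed interstitial cell and fibroblast markers on chow had medians of 33236 CPM in AoV, 34893 in MV, 27100 in PV, 20778 in TV and 22347 in Ao. Their part in the GATA4 levels was not tested.

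HAND2 differed least between tissues. Its lowest, median and highest levels on chow were 53.2, 63.7 and 83.3 CPM in Ao, 101, 110 and 134.3 CPM in AoV and 67.7, 84.0 and 107 CPM in MV. In PV they were 83.0, 108 and 122 CPM and in TV 60.8, 74.1 and 98.8 CPM. AoV lay above Ao and TV without overlap, and all other pairs of tissues overlapped. The log2 difference from Ao was 0.75 in AoV and 0.61 in PV, both called, against 0.36 in MV and 0.16 in TV, and TV was called lower than AoV at -0.59, each with an SE of 0.12. For scale, the shares of all genes called on chow were 52.3% for AoV against Ao, 35% for MV, 39.4% for PV and 32.5% for TV against Ao. They were 3.58% for MV against AoV, 50.9% for PV and 42.4% for TV against AoV, 29.1% for PV and 10.8% for TV against MV, and 9.82% for TV against PV.

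**Figure D1:**
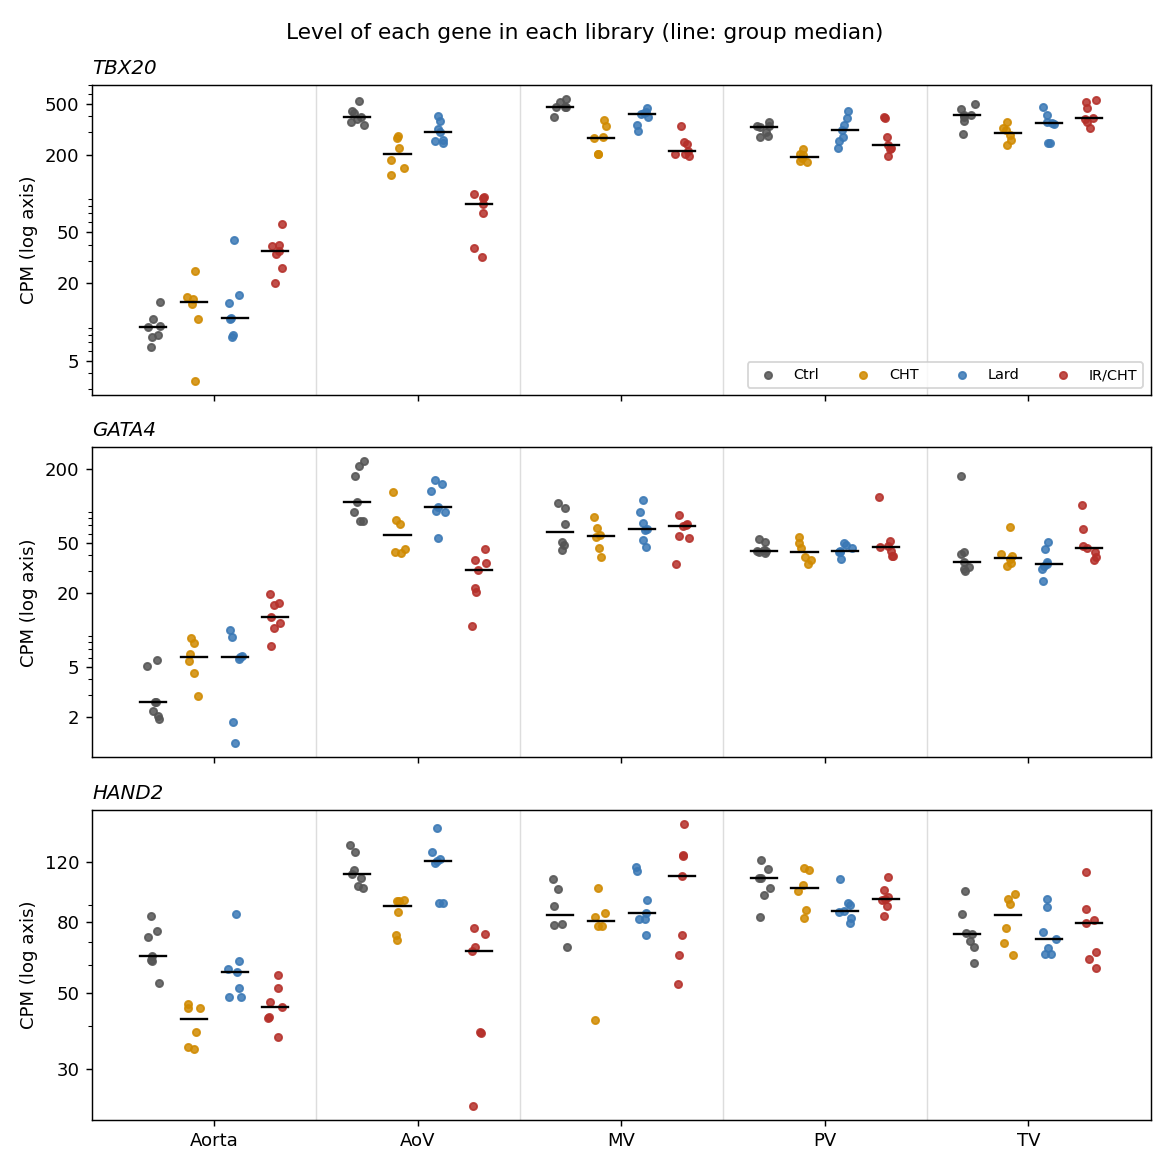
Levels of TBX20, GATA4 and HAND2 (CPM, log axis) in each library by tissue and treatment, with a bar at each group's median. TBX20 sits between 6.43 and 14.3 CPM in control aortas and between 275.5 and 544.4 CPM in control valves, and in AoV its IR/CHT libraries lie between 31.9 and 99.7 CPM, below all other AoV groups.

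In the aortic valve TBX20 was lower on cholesterol and lower again with irradiation. Against the 342 to 522 CPM of Ctrl, its lowest, median and highest levels were 139, 205 and 283 CPM in CHT, 246.3, 300 and 401 CPM in Lard and 31.9, 82.5 and 99.7 CPM in IR/CHT. Ctrl, CHT and IR/CHT did not overlap with each other, and 5 of the 7 Lard libraries lay below the lowest Ctrl library. The log2 fold change was -0.96 with an SE of 0.23 in CHT and -2.50 with an SE of 0.23 in IR/CHT, a 5.66-fold lower level. IR/CHT against CHT gave -1.55 with an SE of 0.23. All 3 differences were called, and the -0.41 of Lard, with an SE of 0.22, was not.

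GATA4 took the same order of medians in AoV, with more overlap. Its lowest, median and highest levels were 41.9, 58.3 and 130 CPM in CHT, 55.3, 97.9 and 161.3 CPM in Lard and 10.7, 30.7 and 45.3 CPM in IR/CHT, against 75.1 to 229.3 CPM in Ctrl. IR/CHT lay below Ctrl without overlap, 4 of 6 CHT libraries lay below the lowest Ctrl library, and 6 of 7 IR/CHT libraries lay below the lowest CHT library. The log2 fold changes were -1.002 with an SE of 0.34 in CHT, -0.30 with an SE of 0.32 in Lard and -2.26 with an SE of 0.34 in IR/CHT, which is 4.81-fold lower. IR/CHT against CHT gave -1.26 with an SE of 0.34. The CHT, IR/CHT and IR/CHT against CHT differences were called, but the CHT call was lost in 20 of the 27 fits that left out 1 library.

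HAND2 was called lower in AoV in the irradiated group. It measured 71.0, 89.1 and 92.7 CPM at lowest, median and highest in CHT, 90.8, 121 and 150.7 CPM in Lard and 23.5, 65.9 and 77.2 CPM in IR/CHT, against 101 to 134.3 CPM in Ctrl. CHT and IR/CHT both lay below Ctrl without overlap. The log2 fold change of IR/CHT was -1.06 with an SE of 0.19, or 2.08-fold lower, and that of IR/CHT against CHT was -0.63 with an SE of 0.20, and both were called. CHT at -0.42 and Lard at 0.04 were not called. The IR/CHT against CHT call was lost without CHT library L265 or without IR/CHT library L178, L194 or L236, with values of -0.77 to -0.48 over all fits that left out 1 library. Library L236 held the lowest level of all 3 genes in AoV of IR/CHT.

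In AoV, 2 of 3 members were called in CHT, both lower, where 11.9% of all genes were called and 3.48% were called lower. All 3 were called lower in IR/CHT, where 42.8% of genes were called and 21.7% called lower, and in IR/CHT against CHT, where the shares were 19.7% and 9.85%. None was called in Lard, where 0.234% of genes were. Within plates, the IR/CHT value of TBX20 was -2.84 on plate 1 and -2.13 on plate 2, that of GATA4 -2.76 and -1.77 and that of HAND2 -1.23 and -0.86, all called. On plate 1 alone, which held every CHT library of AoV, TBX20 was -0.87 and GATA4 -1.01 in CHT, and neither was called.

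In the mitral valve TBX20 stood alone among the 3. Its lowest, median and highest levels were 204, 272.8 and 371 CPM in CHT, 310, 414 and 461 CPM in Lard and 197.3, 215 and 333 CPM in IR/CHT, against 392 to 544.4 CPM in Ctrl. CHT and IR/CHT lay below every Ctrl library. The log2 fold change was -0.81 in CHT with an SE of 0.15 and -1.05 in IR/CHT with an SE of 0.14, both called, whereas IR/CHT against CHT was -0.24 with an SE of 0.14. On plate 1 alone TBX20 was -0.72 in CHT and -0.89 in IR/CHT and on plate 2 alone -1.28 in IR/CHT, each still called. GATA4 ranged from 39.1 to 80.9 CPM in CHT and from 34.4 to 84.4 CPM in IR/CHT and overlapped with its Ctrl range of 44.5 to 106 CPM. HAND2 ranged from 41.6 to 101 CPM in CHT and from 52.8 to 154.9 CPM in IR/CHT and also overlapped with Ctrl. Neither gene was called in any MV comparison, with log2 fold changes between -0.28 and 0.35. The shares of all genes called in MV were 5.62% in CHT (0.64% lower), 0% in Lard, 17.7% in IR/CHT (6.65% lower) and 0.189% in IR/CHT against CHT.

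In the pulmonary valve TBX20 was again the member called, in CHT, where its lowest, median and highest levels were 175.7, 193.4 and 224 CPM against 275.5 to 361 CPM in Ctrl. The 2 groups did not overlap and the log2 fold change was -0.73 with an SE of 0.15, in a comparison in which 0.159% of all genes, 23 in number, were called and 0.111% were called lower. Summed heart muscle markers also differed between these groups, at 44.3 to 93.4 CPM in CHT and 81.3 to 6436 CPM in Ctrl, and with the heart muscle score as a covariate the log2 fold change of TBX20 was -0.68 and no longer called. It was -0.63 on plate 1 and -0.95 on plate 2, not called on either. In IR/CHT of PV, TBX20 measured 197.1, 238.02 and 396 CPM, and the log2 fold change against Ctrl was -0.20 with an SE of 0.15. No member was called in Lard, IR/CHT or IR/CHT against CHT of PV, where 0%, 0.706% and 0.0761% of genes were called.

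No member was called in the tricuspid valve. TBX20 measured 240, 298 and 359 CPM at lowest, median and highest in CHT and 326, 390 and 539 CPM in IR/CHT, both overlapping with the 291 to 496 CPM of Ctrl. Its log2 fold changes were -0.46 with an SE of 0.16 in CHT and 0.07 with an SE of 0.15 in IR/CHT. The shares of all genes called in TV were 0.163% in CHT, 0% in Lard, 0.231% in IR/CHT and 0% in IR/CHT against CHT, so few genes of any kind passed there.

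In the aorta, TBX20 and GATA4 went the other way from AoV. TBX20 measured 3.49, 14.4 and 25.0 CPM at lowest, median and highest in CHT, 7.60, 10.7 and 43.2 CPM in Lard and 20.1, 35.9 and 57.6 CPM in IR/CHT. Every IR/CHT library lay above the highest Ctrl library of 14.3 CPM, and CHT overlapped with Ctrl. The log2 fold change of IR/CHT was 2.00 with an SE of 0.36, a 3.99-fold higher level, and it was called, whereas CHT at 0.60, Lard at 0.77 and IR/CHT against CHT at 1.399 were not, with SEs of 0.36 to 0.37. The Lard and IR/CHT against CHT differences of TBX20 were called in some of the other fits, as given in the last section. The highest aortic level of TBX20 remained below the lowest level in control valves, 57.6 against 275.5 CPM.

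GATA4 in Ao measured 2.93, 6.05 and 8.64 CPM in CHT, 1.22, 6.03 and 9.97 CPM in Lard and 7.48, 12.8 and 19.7 CPM in IR/CHT. IR/CHT lay above the highest Ctrl library of 5.71 CPM, and the other groups overlapped with Ctrl. The log2 fold change of IR/CHT was 2.12 with an SE of 0.38, or 4.36-fold higher, and was called. CHT at 0.93, Lard at 0.85 and IR/CHT against CHT at 1.19 were not. The CHT and IR/CHT against CHT differences were called in some of the other fits, as given in the last section.

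HAND2 was lower in Ao, at 34.3, 41.8 and 46.3 CPM in CHT and 37.0, 45.4 and 56.2 CPM in IR/CHT against 53.2 to 83.3 CPM in Ctrl. CHT did not overlap with Ctrl, and 6 of 7 IR/CHT libraries lay below the lowest Ctrl library. The log2 fold change was -0.71 in CHT with an SE of 0.13, which was called, and -0.51 in IR/CHT with an SE of 0.12, which is 1.42-fold and under the fold threshold. With plain library totals in place of the trimmed mean, the CHT value was -0.56 and the call was lost. One member of 3 was thus called in CHT of Ao, where 19.4% of genes were called and 5.18% called lower, and 2 were called higher in IR/CHT, where the shares were 34.3% and 22.2%. No member was called in Lard or in IR/CHT against CHT of Ao, where 2.61% and 0.596% of genes were called.

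**Figure D2:**
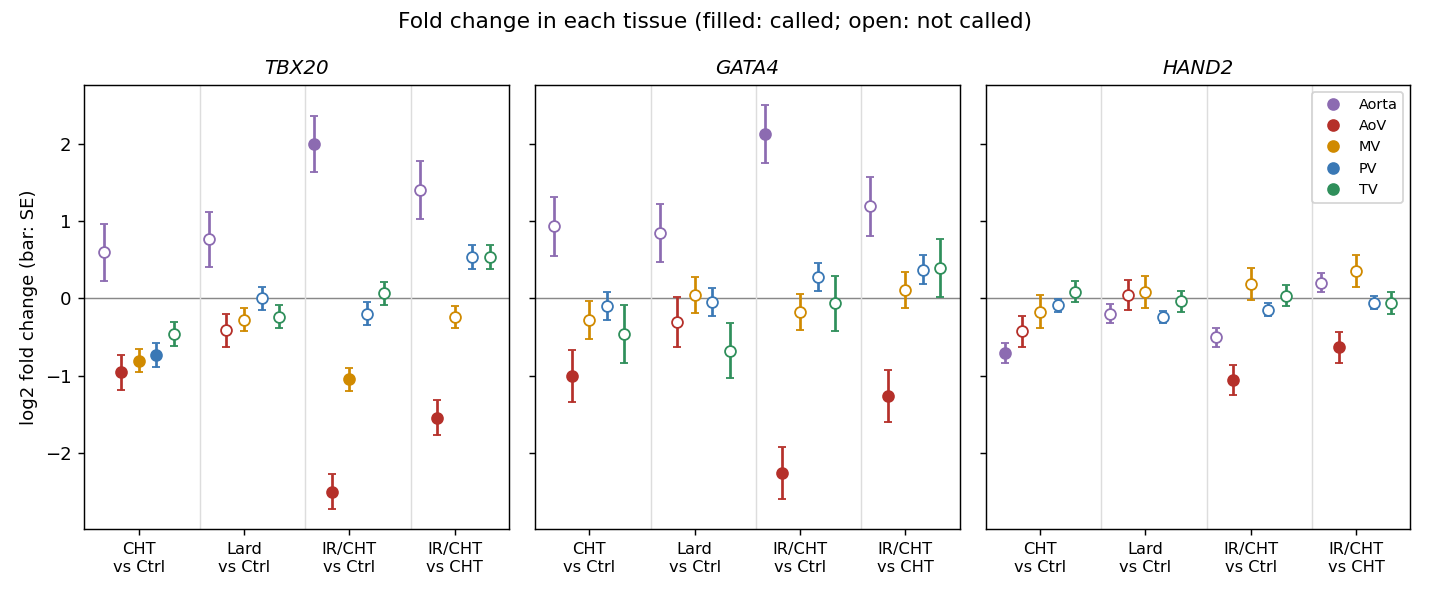
Log2 fold change of TBX20, GATA4 and HAND2 in each tissue and comparison (points, with SE bars), filled where called. In IR/CHT against Ctrl, TBX20 and GATA4 lie at 2.00 and 2.12 in the aorta and at -2.50 and -2.26 in AoV.

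The difference between 2 tissues in their response to the same treatment was fitted as an interaction, called at an adjusted p under 0.05. For TBX20 the IR/CHT response in AoV was lower than in Ao by a log2 difference of -4.64, than in MV by -1.50 and than in PV by -2.38, and the response in MV was lower than in TV by -1.09. For GATA4 the first 3 of these were -4.54, -2.16 and -2.61, and for HAND2 -0.69, -1.29 and -0.98. All 10 of these differences were called, the HAND2 difference of AoV from Ao not without the filter on low counts (-0.57), and the MV to TV differences of GATA4, -0.09, and HAND2, 0.17, were not. With CHT alone, AoV differed from Ao for TBX20 at -1.61 and GATA4 at -2.01, both called, and HAND2 at 0.22 was not. No CHT difference of AoV from MV or PV, or of MV from TV, was called for any member. Among all genes the shares called in IR/CHT were 32.8% for AoV against Ao, 15.7% against MV, 40.2% against PV and 9.56% for MV against TV. In CHT they were 5.3%, 0%, 4.39% and 2.23% in the same order.

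Cell type markers moved in several of these comparisons, and in bulk tissue fewer cells of a type and less RNA per cell cannot be told apart. The score of each list is the mean log2 CPM of its genes, compared by exact two-sided permutation tests with p-values adjusted over 160 tests. In AoV the macrophage score was higher by 2.05 in CHT and by 3.35 in IR/CHT (adjusted p = 0.00548 for both by the exact permutation test), with summed levels of 219 to 668 CPM in Ctrl, 1103 to 1675 CPM in CHT and 3117 to 4634 CPM in IR/CHT. The interstitial cell and fibroblast score of AoV differed by -0.02 in CHT and by -0.52 in IR/CHT (adjusted p = 0.886 and 0.00548 by the exact permutation test). The lymphocyte score of AoV was higher by 2.21 in IR/CHT (adjusted p = 0.00548 by the exact permutation test), with low sums of 1.03 to 5.30 CPM in Ctrl and 8.06 to 32.8 CPM in IR/CHT. The osteoclast score of AoV was higher by 3.64 in CHT and by 5.45 in IR/CHT (adjusted p = 0.00548 for both by the exact permutation test). That list held 10 genes, of which 6 had a row and 4 were tested, and all 4 tested were called higher in IR/CHT. CALCR, which had a row, was at 0 in every AoV library of Ctrl, CHT and IR/CHT. HAND2 is also known as a factor of sympathetic neurons, and the score of sympathetic neuron and Schwann cell markers was lower in IR/CHT, with differences of -1.297 in AoV and -0.71 in MV (adjusted p = 0.00548 and 0.00811 by the exact permutation test). Of that list 3 of 3 tested markers were called lower in AoV, with a median of -1.71, and 3 of 6 in MV, with a median of -1.02. Its sum in AoV was 39.8 to 255 CPM in Ctrl, with a median of 115 CPM, and 2.18 to 84.6 CPM in IR/CHT, with a median of 31.6 CPM, and PHOX2A was at 0 in every library of both groups. In IR/CHT against CHT of AoV, where 19.7% of all genes were called, other lists moved too. Called higher were 11 of 15 macrophage, 3 of 4 lymphocyte and 3 of 4 osteoclast markers, and 3 of 13 interstitial markers were called lower. The part of these cell types in the values of the members was not tested.

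Heart muscle markers, which can come from myocardium left on a dissected leaflet, were also lower in AoV of CHT, IR/CHT and Lard. The list had 23 genes with a row, of which 22 were summed and TCAP was at 0 in every library. Its sum was 288 to 14265 CPM in Ctrl, 60.7 to 441 CPM in CHT, 71.5 to 317 CPM in Lard and 85.5 to 379 CPM in IR/CHT. The score was lower by 3.01 in CHT, by 2.91 in IR/CHT and by 2.57 in Lard, where no member was called (adjusted p = 0.00811, 0.0117 and 0.00811 by the exact permutation test), and IR/CHT and CHT differed by 0.10 (adjusted p = 0.892 by the same test). With this score as a covariate, TBX20 in AoV was -1.09 in CHT and -2.64 in IR/CHT, both still called, and GATA4 in CHT was -1.16 and no longer called. In MV the score differed by 0.50 in CHT and 0.19 in IR/CHT (adjusted p = 0.664 and 0.865 by the exact permutation test). Other scores of MV were higher where TBX20 was lower. The macrophage score was higher by 1.93 in CHT and 2.58 in IR/CHT (adjusted p = 0.0117 and 0.00548), the smooth muscle score by 1.24 and 0.98 (adjusted p = 0.0117 and 0.0333) and the lymphocyte score by 1.73 in IR/CHT (adjusted p = 0.00811), all by the exact permutation test. The osteoclast score of MV was higher by 3.22 and 3.85 (adjusted p = 0.0117 and 0.00548 by the exact permutation test), with all 4 tested markers called higher in both. In PV of CHT the macrophage score was higher by 0.40 (adjusted p = 0.0117) and the heart muscle score lower by 2.72 (adjusted p = 0.021), both by the exact permutation test. With the heart muscle score as a covariate TBX20 in MV was -0.84 in CHT and -1.06 in IR/CHT, both still called, and in PV of CHT it was -0.68 and no longer called. The part of the other scores in the values of TBX20 was not tested.

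In Ao the endothelial score was higher by 1.29 in CHT and 1.55 in IR/CHT, the macrophage score by 3.40 and 4.03, and the smooth muscle score was lower by 0.72 and 1.16 (adjusted p between 0.00548 and 0.025 by the exact permutation test). The osteoclast score of Ao was higher by 3.75 and 4.27 (adjusted p = 0.00548 for both by the exact permutation test), with all 4 tested markers called higher in both. In Lard of Ao, where TBX20 was at 0.77 and GATA4 at 0.85 and neither was called, the endothelial score was higher by 0.82, the macrophage score by 1.41 and the osteoclast score by 2.49 (adjusted p = 0.0155, 0.00548 and 0.0112 by the exact permutation test). In IR/CHT of Ao the interstitial score was higher by 0.49 and the lymphocyte score by 1.62 (adjusted p = 0.0155 and 0.0167 by the exact permutation test). The heart muscle score of Ao differed by 0.92 in IR/CHT against Ctrl and by 1.53 in IR/CHT against CHT (adjusted p = 0.296 and 0.0403 by the exact permutation test). Among the IR/CHT libraries the score was 6.13 in L566 and 4.37 in L580, and the others lay between 2.10 and 3.12. Of 19 tested heart muscle markers, 9 were called higher and 4 lower in IR/CHT against Ctrl, with a median log2 fold change of 1.48. The sum of the list went the other way, at 507 to 4068 CPM with a median of 745 CPM in IR/CHT against 1661 to 2237 CPM with a median of 1952 CPM in Ctrl. In Ao of CHT the score was lower by 0.62 (adjusted p = 0.0476 by the exact permutation test) and the sum was 571.04 to 1798 CPM with a median of 1092 CPM. With the heart muscle score as a covariate TBX20 in Ao of IR/CHT was 1.78 and still called, and the part of the other scores in the aortic values was not tested.

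The spread of GATA4 within groups ran along a common axis of the libraries. A principal component of all genes other than the members, after group means were removed, held 22.6% of the variation, against 5.24% for the next. Its r with the log2 mitochondrial share of counts was -0.44, where the sign was set to be negative and only the size is a result. Within groups the correlation of GATA4 with this library axis was 0.77 over all libraries, from 0.61 in Ao to 0.96 in TV, and it was 0.17 for TBX20 and -0.12 for HAND2. By tissue it ran from -0.29 in MV to 0.52 in TV for TBX20 and from -0.51 in MV to 0.50 in PV for HAND2, so that the pooled values of these 2 genes combine both signs. The libraries share depth, preparation and rabbit, so these are descriptions without a p. The median axis score was 47.5 in AoV and 23.1 in MV but -60.6 in PV and -58.0 in TV, and in Ao it was -15.3 in Ctrl and 49.4 in IR/CHT.

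With the axis score as a covariate, GATA4 in AoV of IR/CHT was -1.92 and in Ao of IR/CHT 1.43, both still called, and in AoV of CHT it was -0.57 and not called. The chow differences of GATA4 between valves went from -1.47 to 0.03 for PV against AoV, from -1.49 to -0.30 for TV against AoV and from -0.69 to 0.22 for PV against MV. TBX20 was -2.48 in AoV of IR/CHT and 1.77 in Ao of IR/CHT with the same covariate, both called.

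**Figure D3:**
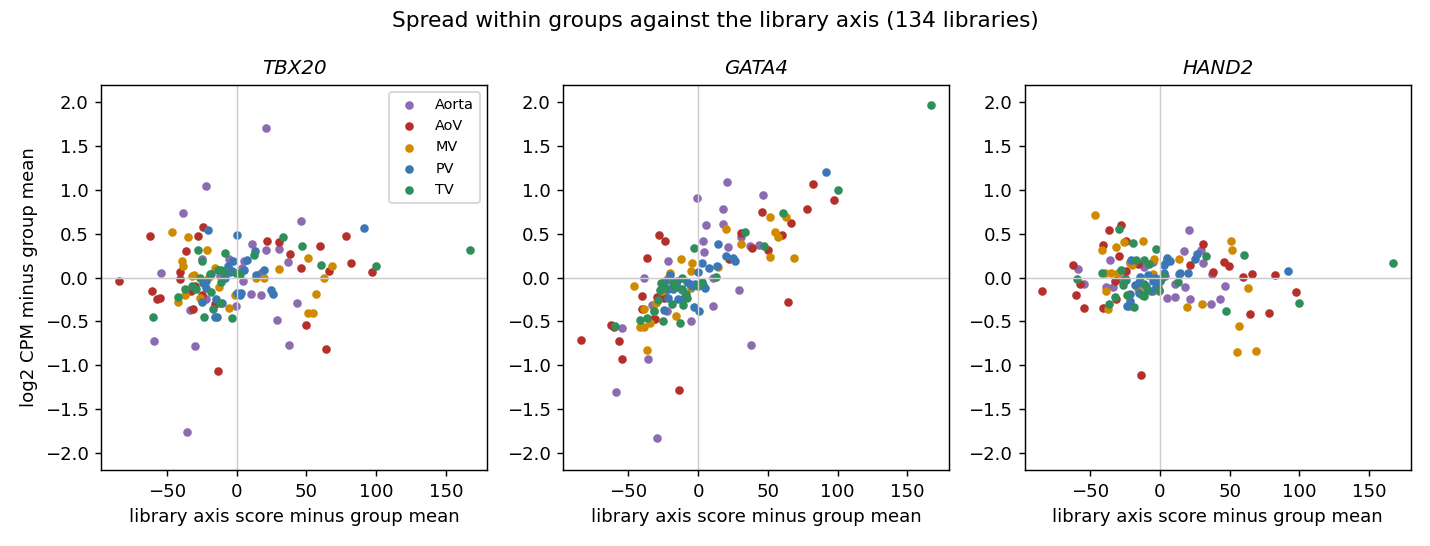
Log2 CPM of each member minus its group mean, against the library axis score minus its group mean, for all libraries coloured by tissue. Over all tissues r is 0.77 for GATA4, 0.17 for TBX20 and -0.12 for HAND2, and within tissues TBX20 and HAND2 go both ways along the axis.

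The levels of the members were also set against 6 marker scores within treatments in each tissue, 90 relations in all, each over the 26 or 27 libraries of a tissue. The members were chosen on their levels and the libraries share depth, preparation and rabbit, so r and rho are given as descriptions without a p. When relations were ranked by the smaller of r and rho in size, the first 6 were all of GATA4. With the interstitial score r was 0.76 in MV, 0.88 in PV and 0.89 in TV and rho was 0.78, 0.68 and 0.72, and r was 0.76, 0.63 and 0.79 without the 2 libraries with the most extreme scores. With the lymphocyte score r was 0.74 in Ao and 0.62 in AoV and rho was 0.75 and 0.60. The 5 summed lymphocyte markers were low, at 0.254 to 15.2 CPM over all Ao libraries and 0.123 to 32.8 CPM over all AoV libraries. The r of GATA4 with the library axis in these tissues was 0.61 and 0.77. With the endothelial score of MV r was -0.68 and rho -0.71. For TBX20 r ran from -0.49 to 0.61 over its 30 relations, and the highest was with the endothelial score in Ao, with a rho of 0.57 and an r of 0.59 without 2 libraries. For HAND2 r ran from -0.58 with the smooth muscle score in MV to 0.54 with the same score in Ao, and without 2 libraries these were -0.34 and 0.38. HAND2 and the smooth muscle score were both lower in Ao of CHT.

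The genes whose log2 CPM was most like each member's were ranked by Pearson's r across all libraries among 11249 genes, which describes the tissues and treatments that the libraries share. For TBX20 they were ARMH4, WNT16, MKX, CCDC80 and PAMR1, all at 0.95, with GATA4 at rank 30 and r = 0.90. For GATA4 they were SALL3 at 0.93, MATN4, HTR7 and GPR39 at 0.92 and MCC at 0.91, with TBX20 at rank 10. HAND2 had no gene as close, with PTPN14 at 0.81, PTPRG, APCDD1 and VXN at 0.77 and HAPLN1 at 0.76. After group means were removed, TBX20 was closest to CD34 at 0.68, ANGPTL2 at 0.53, ECE1 and SCRN1 at 0.51 and CCDC80 at 0.50. GATA4 was then closest to JUP, SEMA6C and DENND2A at 0.84 and to PLXNA3 and PEAR1 at 0.83. HAND2 was closest to PTPN14 at 0.61, PTPRG at 0.58, STOX2 at 0.55, SHE at 0.54 and CAVIN2 at 0.53.

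Other cardiac and valve transcription factors, a list of 49 that left out the members and of which 31 had a row, were also mostly lower in AoV of IR/CHT. Of 29 tested, 18 fell and 4 rose, with a median log2 fold change of -1.32 against -0.06 over all genes. That is 75.9% of the list called, where 42.8% of all genes were called and 21.7% called lower. The falls with the smallest p by edgeR's quasi-likelihood test with Benjamini-Hochberg adjustment were of ISL1, a LIM homeodomain factor of the second heart field, at -2.33 (SE 0.25, adjusted p = 1.8e-08), PRRX1, a homeobox factor of mesenchyme, at -1.16 (SE 0.14, adjusted p = 9.7e-08), and MECOM, a zinc finger factor, at -1.91 (SE 0.23, adjusted p = 1.2e-07). MEF2C, a MADS-box factor of muscle that is also expressed in myeloid cells, rose by 1.60 (SE 0.17, adjusted p = 1.7e-08 by the same test). ZEB2, a repressor of epithelial genes also expressed in macrophages, rose by 0.74 (SE 0.14, adjusted p = 1.0e-04 by the same test). The macrophage score was higher by 3.35 in the same libraries.

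In CHT of AoV 2 factors fell and 1 rose, with a median of -0.33, where 3.48% of all genes were called lower and 8.42% higher. The 2 were FOXF1 and TBX5, both near 2 CPM in Ctrl, and the 1 was MEF2C. How many fell changed with the fit and with single libraries left out, as given in the last section. IR/CHT against CHT gave 12 lower and 2 higher with a median of -0.82, or 48.3% of the list against 19.7% of all genes. In Ao of IR/CHT 10 of 30 fell and 4 rose around a median of -0.04 (46.7% against 34.3% of all genes), with MEIS1, a cofactor of HOX proteins, at -1.33 and MYOCD, the smooth muscle coactivator, at -1.80, while the endothelial factor ERG was at 0.78. In MV of IR/CHT 4 of 30 fell and 1 rose with a median of -0.40, where 6.65% of all genes were called lower and 11.1% higher. Those that fell included MECOM at -0.96 and TBX18 at -1.19, and MEF2C rose by 1.13. In PV, TV and all Lard comparisons of the 5 tissues none of this list was called.

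**Figure D4:**
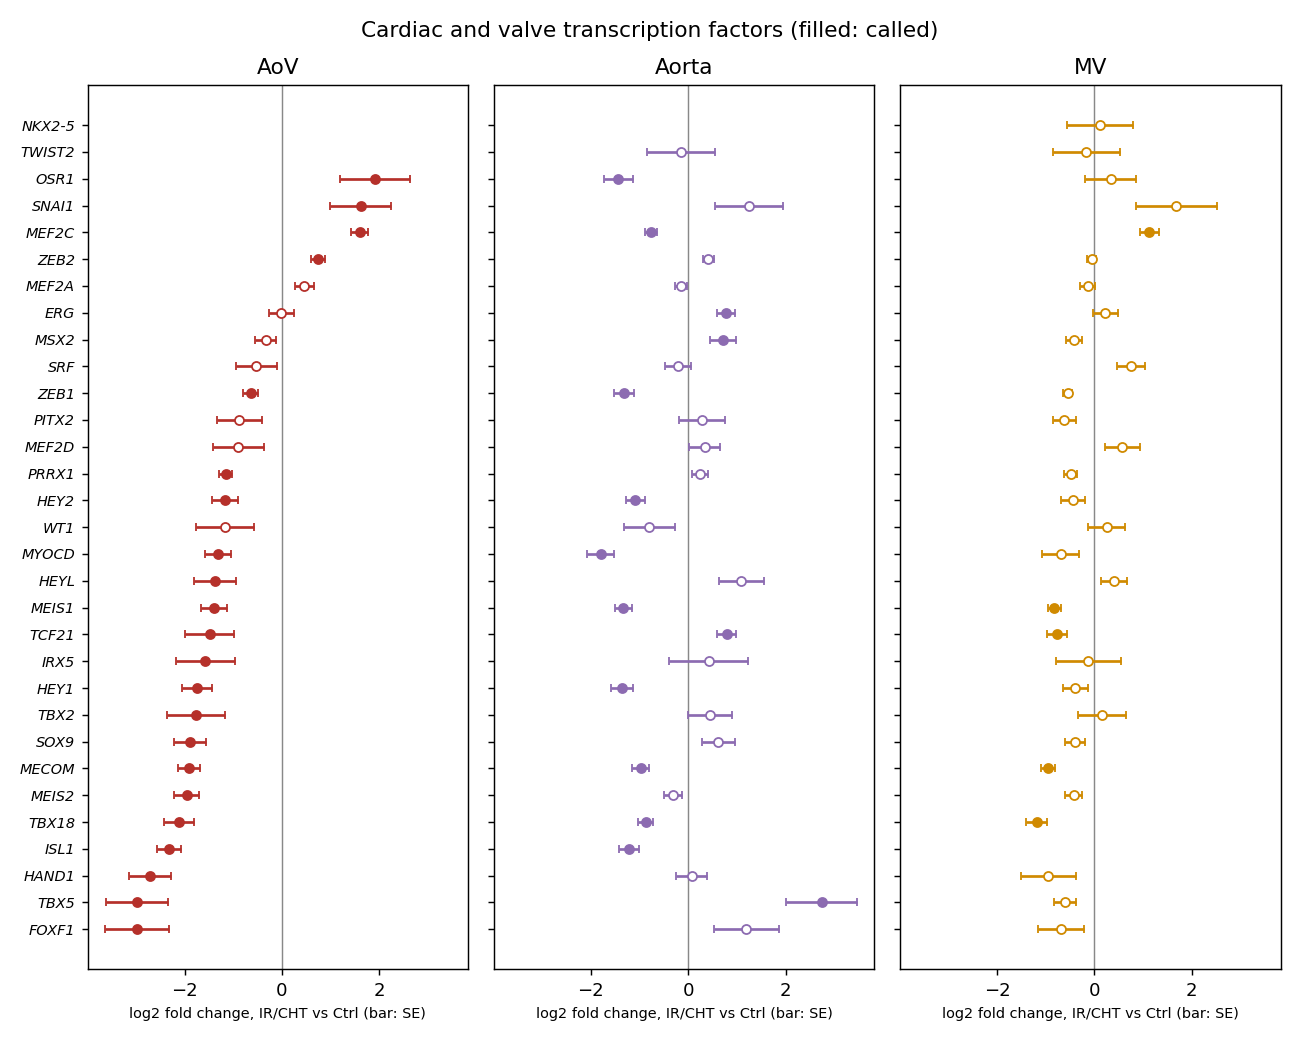
Log2 fold change (points, with SE bars) of the tested cardiac and valve transcription factors other than the members, IR/CHT against Ctrl in AoV, Ao and MV, filled where called. In AoV 18 of 29 were called lower, in Ao 10 of 30 and in MV 4 of 30.

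Of the partners and targets of the members, 10 of 19 tested fell and 1 rose in AoV of IR/CHT, with a median of -1.22, or 57.9% called against 42.8% of all genes (21.7% lower). ZFPM2, the cofactor that binds GATA4, fell by 1.49 on the log2 scale, and BMP2, the cushion growth factor, by 2.24, while the gap junction gene GJA1 rose by 1.42. In CHT of AoV 4 fell (21.1% against 11.9% of all genes). Those that fell in IR/CHT and in CHT included the heart muscle genes TNNC1, ACTC1 and MYH7, and 19 of 22 heart muscle markers were called lower in IR/CHT (median -4.17) and 16 of 22 in CHT (median -3.96). In Ao of IR/CHT 6 of 17 rose and 4 fell (58.8% against 34.3%), with CDH5, the endothelial cadherin, at 1.72 and SEMA3C, a guidance signal of the outflow tract, at -1.62. In MV of IR/CHT 2 of 19 rose and 4 fell (31.6% against 17.7%).

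Endocardial cushion signals and matrix genes had 13 of 26 lower and 1 higher in AoV of IR/CHT, with a median of -0.58, or 53.8% called against 42.8% of all genes. In CHT of AoV none was lower and 2 were higher, with a median of -0.16, or 7.69% against 11.9%. In IR/CHT TGFBR3, the TGF-beta coreceptor, was at -1.62 and ADAMTS19, a valve protease, at -3.73, and the receptor TGFBR1 was at 0.98. In MV of IR/CHT 9 fell and none rose (34.6% against 17.7%), with NOTCH2 at -0.60 and HAS2, the hyaluronan synthase of the cushion matrix, at -1.04. In Ao of IR/CHT 6 rose and 5 fell (42.3% against 34.3%), with BMP6 at 5.16 and EGFR at -0.99.

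The calcineurin and NFAT pathway, in which NFATC1 acts, had 23 of 26 listed genes with a row. In AoV of IR/CHT 4 rose and 8 fell around a median of -0.06 (52.2% called against 42.8% of all genes), with the phospholipase PLCG2 at 1.70, the calcineurin regulator RCAN1 at 1.67 and the scaffold HOMER2 at -3.06. In Ao of IR/CHT 7 rose and 5 fell (52.2% against 34.3%), with PLCG2 at 3.56 and the calcineurin subunit PPP3CC at -1.10. In MV of IR/CHT 3 rose and 2 fell (21.7% against 17.7%), with NFATC2 at 1.23 and HOMER2 at -1.18. All these calls were by edgeR's quasi-likelihood test with Benjamini-Hochberg adjustment over all genes.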

How the data were processed

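RNA from dissected tissue was made into libraries with a stranded total RNA kit for low input (SMARTer, Pico) and sequenced on a NovaSeq6000. The authors processed reads with bcl2fastq 2.20 and nf-core/rnaseq on OryCun2.0 with Ensembl annotation and deposited raw counts per gene, in 2 tables, 1 per plate. Counts were tested in edgeR 4.0.16 (R 4.3.3) with trimmed-mean scaling, its default filter on low counts and a robust quasi-likelihood fit of the 4 treatments in each tissue. The chow fit had the rabbit as a block, since tissues came from the same rabbits. DESeq2 1.42.0, limma 3.58.1, plate, marker score and axis covariates and leaving out each library were alternatives. Single libraries were left out in AoV and MV only. The axis covariate and plain library totals were added after the data were seen. Log2 CPM used a prior count of 2, and exact permutation tests were run in scipy 1.17.1. The members and lists were chosen with earlier results of these data known. The named list genes are those with the smallest p among those called in each direction. The fits were tested on simulated counts. Gene sequences were not used here.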

Additional observations from a re-analysis of the deposited data

Results flagged for a closer look

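A single library stood apart from the rest of its group in 7 of the 60 groups of a member, tissue and treatment. The gap to the next library was judged on CPM without logs, and in all 7 it was the highest library. A chance rate is not given, since the CPM were not logged and the groups share libraries. For GATA4 these were the highest libraries of PV IR/CHT (118.9 CPM, next 52.5), TV CHT (68.0 CPM, next 40.7) and TV Ctrl (173.6 CPM, next 42.3). The last of these had 0.0373% of its counts on mitochondrial genes and an axis score of 132.1, the highest of its group. For HAND2 they were the highest libraries of Ao Lard (84.4 CPM, next 61.7) and PV Lard (107.0 CPM, next 91.1). For TBX20 they were the highest libraries of Ao Lard (43.2 CPM, next 16.4) and MV IR/CHT (332.8 CPM, next 254.2). The Ao Lard library that was highest for TBX20 was L564, which was also the highest for HAND2 and GATA4.

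The response to a treatment was called different between tissues in 12 of 24 interactions of the members. Among all genes 5.3% were called for AoV minus Ao in CHT. In IR/CHT the shares were 32.8% for AoV minus Ao, 15.7% for AoV minus MV, 40.2% for AoV minus PV and 9.56% for MV minus TV. For GATA4, AoV minus Ao was -2.01 in CHT and -4.54 in IR/CHT, and in IR/CHT AoV minus MV was -2.16 and AoV minus PV -2.61. For HAND2 in IR/CHT, AoV minus Ao was -0.69, AoV minus MV -1.29 and AoV minus PV -0.98. For TBX20, AoV minus Ao was -1.61 in CHT and -4.64 in IR/CHT, and in IR/CHT AoV minus MV was -1.50, AoV minus PV -2.38 and MV minus TV -1.09. The members were selected on these levels, so the values are descriptions.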

How the results depend on the processing

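Of 1416 values of 114 member results under alternatives, 1335 kept their side of the threshold and, where called, their direction, or, where called in neither fit, moved by less than 1 SD of the replicates. The sign changed in 51, of which 49 were called in neither fit. The other 2 were called differences of GATA4 on chow with the library axis as a covariate, at 0.032 for PV minus AoV and 0.22 for PV minus MV, where TV minus AoV was -0.30 and TV minus MV -0.12. That covariate also gave GATA4 -0.57 in AoV CHT, -0.13 in PV IR/CHT, -0.00039 in PV IR/CHT against CHT and -0.022 in TV Lard, and on chow HAND2 -0.56 for TV minus AoV and TBX20 -0.50 for PV minus MV. The cause was not tested. The GATA4 call in AoV CHT was also lost with the heart muscle score as a covariate (-1.16), plate as a covariate (-0.72), no filter (-0.98), only the 2 groups compared (-1.01), plain totals (-0.95) and plate 1 alone (-1.01), and it ranged from -1.30 to -0.84 without 1 library each. HAND2 in AoV IR/CHT against CHT ranged from -0.77 to -0.48 likewise.

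With 1 model of all 5 tissues, GATA4 in Ao was 0.91 in CHT and 1.16 in IR/CHT against CHT, and TBX20 in Ao was 0.76 in Lard and 1.37 in IR/CHT against CHT, all now called, while TBX20 in PV CHT was -0.70 and no longer called. The Ao Lard group held library L564, at 43.2 CPM of TBX20 with the next at 16.4 CPM, and no Ao fit left out a library. DESeq2 gave 0.95, 1.20 and 1.41 for GATA4 in Ao CHT, GATA4 in Ao IR/CHT against CHT and TBX20 in the latter, all called. GATA4 in Ao CHT was also called with only the 2 groups (0.93) and plain totals (1.09), which lost HAND2 in Ao CHT (-0.56). TBX20 in PV CHT was not called with the heart muscle score (-0.68), plate 1 alone (-0.63) or plate 2 alone (-0.95). Without the filter the HAND2 interaction of AoV minus Ao in IR/CHT was -0.57 and its call was lost.

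Tissues of 1 rabbit were paired in the chow fit. Without the replicate block for the rabbit, GATA4 PV minus MV was -0.61 and not called, and DESeq2 with the rabbit as a block gave -0.68, not called, and -0.85 for MV minus AoV, called. All 24 interactions kept their call in limma with the rabbit as a replicate block.

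On plate 1 alone TBX20 in AoV CHT was -0.87 and not called, GATA4 was -0.48 in MV Lard, -0.0023 in PV IR/CHT against CHT and 0.37 in TV CHT, and HAND2 was 0.22 in TV IR/CHT against CHT. On plate 2 alone GATA4 was 0.74 in MV Lard, 0.56 in MV IR/CHT, 0.81 in PV IR/CHT, 1.10 in PV IR/CHT against CHT, -1.63 in TV CHT, -1.38 in TV Lard and -0.68 in TV IR/CHT. There TBX20 was 0.92 in PV IR/CHT against CHT, HAND2 was -0.31 in TV IR/CHT and -0.51 against CHT, and the r of HAND2 with smooth muscle markers in MV was 0.060, reversed from -0.58. On chow, plate 2 alone without a block gave GATA4 -1.56 for MV minus AoV, -1.57 for PV minus AoV, -0.34 for TV minus AoV, -0.011 for PV minus MV, 1.21 for TV minus MV and 1.22 for TV minus PV, HAND2 -0.58 for TV minus AoV and TBX20 -0.59 for PV minus MV.

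The number of other transcription factors called lower in AoV CHT, 2, was 6 with 1 model, 8 with DESeq2, 0 with the heart muscle score, plate 1 alone or plate as a covariate, and 0 to 5 without 1 library each. In MV CHT, 1, it was 0 with 1 model, DESeq2 size factors, no filter, plate 1 alone or plate as a covariate, 2 with the axis, and 0 to 1 without 1 library. In Ao CHT, 1, it was 4 with the heart muscle score, 3 with the axis and 0 with plain totals. In MV IR/CHT, 4, it was 8 with the axis and 3 to 7 without 1 library, and in AoV IR/CHT, 18, it was 11 on plate 2 alone. The shift in log2 fold change from plain totals to the trimmed mean was taken from the groups' mean log2 scaling factors. It was farthest from 0 in Ao IR/CHT, at -0.21, and highest in AoV IR/CHT against CHT, at 0.11. Of the GATA4 levels in Ao, the lowest library was in Lard, at 1.22 CPM from 19 counts.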
